A study of Mus musculus with 6 samples.

Results

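The cytosolic heat shock chaperones described here are 10 genes of the mouse transcriptome, chosen by symbol: the HSP90 genes Hsp90aa1 and Hsp90ab1, the HSP70 genes Hspa8, Hspa1a and Hspa1b, the HSP110-type genes Hspa4 and Hsph1, the J protein genes Dnaja1 and Dnajb1, and the transcription factor gene Hsf1. Each of the 10 had 1 row among the 53733 named rows of the count table, and all 10 were among the 13652 rows that passed the filter on low counts. RNA came from a mouse acute myeloid leukaemia line, made from foetal liver cells with a retroviral vector for the fusion oncogene MLL-AF9 and luciferase, always expressed, and a second vector in which doxycycline turns on FLT3-ITD, an activated receptor tyrosine kinase, together with DsRED. NSG mice, an immunodeficient strain, received these cells by tail vein injection and doxycycline in food and water for 96 h, after which 3 mice stayed on doxycycline (ON) and 3 received regular food and water for 48 h (OFF). Cells of both groups carry both vectors, so the groups differ in doxycycline itself as well as in FLT3-ITD, and the effects of these cannot be told apart. Viable leukaemic cells were sorted from the bone marrow, and 1 library of mRNA 3' ends was made per mouse. All libraries come from 1 cell line, and the sources used here give neither the ages of the mice nor the gate of the sort.

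Chaperones of the cytosol bind unfolded stretches of other proteins and help them to fold, to assemble or to be degraded. HSP70 proteins work in a cycle of ATP binding and hydrolysis that J proteins start and that exchange factors, including the HSP110 proteins, end. HSP90 takes up clients that are already partly folded, many of them signalling kinases, and mutant FLT3 is among the kinases known to depend on it. Most of these genes are transcribed at all times, and a subset is strongly induced by HSF1, the heat shock factor, when unfolded proteins accumulate. Rapidly dividing and leukaemic cells generally hold large amounts of these chaperones.

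The libraries held between 8335234 and 9316361 counts in named rows, and a single count equalled no more than 0.12 CPM (counts brought to a common library size with TMM factors). A first principal component of log2 CPM held 67.6% of the variance and parted the groups, while OFF replicate 3 scored -29.3 on the second (13.6%) and the other OFF libraries scored 23.9 and 14.4. Myeloid progenitor markers such as Mpo, Elane and Hoxa9 were present in every library, whereas Kit was too low to be tested. The summed level of 13 tested and 1 untested myeloid markers was 2840 to 3230 CPM in ON and 4720 to 4930 CPM in OFF. Its largest rows in OFF were Elane (mean 840 CPM in ON, 1630 CPM in OFF), Prtn3 (691 and 1000 CPM) and Mpo (301 and 803 CPM). By edgeR, 17.3% of all tested rows were called higher in OFF and 17.5% lower. The markers did not all rise: 9 of the 13 tested were called higher, 1 lower and 3 neither. Ctsg was the lower one (194 to 148 CPM, edgeR adjusted p = 0.016), and Spi1, Hoxa9 and Cebpa were not called. The mouse Flt3 row measured 5.48 to 5.81 CPM in ON and 5.44 to 9.13 CPM in OFF (edgeR adjusted p = 0.387); whether 3' reads of the vector transgene would be counted in it was not tested, so it does not check the labels. In bulk samples, fewer cells of a type and less RNA per cell cannot be told apart.

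After doxycycline withdrawal, all 10 chaperone genes fell, and in each of them every OFF library lay below every ON library. The falls ranged from 1.49-fold for Hsf1 to 4.05-fold for Hspa1b. Hspa1b, Hsph1, Hspa1a and Hsp90aa1, all stress-inducible, had the 4 largest falls, while Dnajb1, which is heat-inducible too, fell less (1.59-fold) than the constitutive Hspa8 and Hspa4 (1.71-fold and 1.72-fold). Across all tested rows, 17.5% were called lower and 17.3% higher at an adjusted p of 0.05 (edgeR's quasi-likelihood test with Benjamini-Hochberg adjustment), together 34.8%. Among the 8061 rows with a mean of at least 10 CPM, 20.9% were called lower. Every OFF library was below every ON library in 24.5% of all rows, and the groups did not overlap in either direction in 48.3%. The median log2 fold change (OFF minus ON) of the 10 genes was -0.78, against 0.004 over all tested rows. Summed over the 10 genes, the level was 6928, 6579 and 6983 CPM in the ON libraries and 4790, 3541 and 3065 CPM in the OFF libraries. This sum therefore went from 6830 ± 219 to 3800 ± 891 CPM (SD over 3 libraries per group), with the OFF libraries more spread than the ON libraries. Within OFF, replicate 1 held the highest value of 8 of the 10 genes. The same library was the highest of OFF in 62.6% of all rows called lower.

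**Figure D1:**
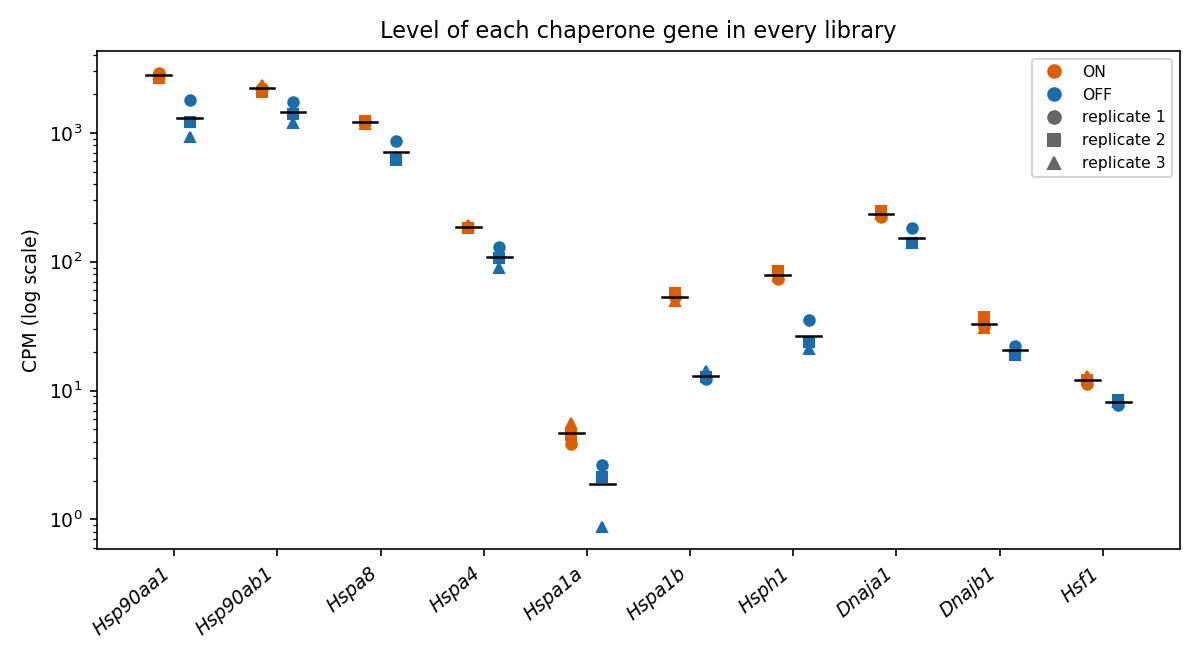
Level in CPM (log axis) of each of the 10 chaperone genes in the 3 ON and 3 OFF libraries, with a bar at the mean of each group and a marker shape for each replicate. For every gene the 3 OFF libraries sit below the 3 ON libraries, and Hspa1b and Hsph1 show the widest gaps.

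The HSP90 genes were the most counted of the 10. Hsp90aa1, the stress-inducible cytosolic HSP90 (chromosome 12, 110690605 to 110702728, minus strand, mouse build GRCm38), measured 2892, 2656 and 2837 CPM in the ON mice, against 1802, 1220 and 922.8 CPM in the OFF mice. The ON libraries lay close together and the OFF libraries were widely spread, without touching the ON values. Its level was 2800 ± 123 CPM in ON and 1320 ± 447 CPM in OFF (SD over 3 libraries per group), a 2.13-fold fall (log2 change -1.09 ± 0.20 SE, edgeR adjusted p = 0.00257). Hsp90ab1, the constitutive cytosolic HSP90 (chromosome 17, 45567775 to 45573271, minus strand), measured 2228, 2071 and 2364 CPM in the ON mice, against 1738, 1390 and 1201 CPM in the OFF mice. Its fall was smaller, 1.54-fold (log2 change -0.62 ± 0.12 SE, edgeR adjusted p = 0.00136), and OFF replicate 3 was again the lowest library.

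The share of the stress-inducible gene within the HSP90 pair was lower in every OFF library. The Hsp90aa1 row took 56.5%, 56.2% and 54.6% of the counts of both HSP90 rows in the ON libraries, and 50.9%, 46.7% and 43.5% in the OFF libraries. The log2 ratio of Hsp90aa1 to Hsp90ab1, which needs no scaling between libraries, went from 0.333 ± 0.0609 to -0.172 ± 0.217 (SD over 3 libraries per group). The difference of -0.505 gave p = 0.1 in an exact two-sided permutation test, the smallest that 3 against 3 libraries allow. The ratio was lower in 3 of 3 OFF libraries than in any ON library. Among all tested single rows, 24.5% had every OFF library below every ON library, and no such share was taken for ratios. The ratio was 1 of 2 compared, and the adjusted value was also 0.1, so neither can pass 0.05 in this design.

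Hspa8, the constitutive HSP70 of the cytosol (chromosome 9, 40800984 to 40810087, plus strand), measured 1229, 1229 and 1180 CPM in ON. In OFF it stood at 857.1, 618.3 and 646.4 CPM, below every ON library. It fell 1.71-fold (log2 change -0.78 ± 0.12 SE, edgeR adjusted p = 1.83e-04). Its row is uncertain in size, because in the annotation 90.2% of the 50-base windows in the last 500 bases of its transcripts also occur in transcripts of 13 other genes. The row Gm26825, which shares 90.2% of those windows, held between 74.9% and 80.3% of the Hspa8 count in every library and changed by -0.73 (SE 0.12, adjusted p = 2.58e-04 by edgeR). The rows Gm15459 and Gm8355 shared 81.6% and 66.5% of the windows and changed by -0.75 and -0.78. Whether the same reads were counted in several rows was not tested, and the sources used here do not state the authors' setting for such reads. With these 3 rows and Gm6210, a row of 1 to 5 counts, added to it, Hspa8 changed by -0.76 (adjusted p = 2.43e-04 by edgeR). The 3 larger rows changed much as Hspa8 did, so this sum could hardly differ and does not check the Hspa8 value. Other rows that share windows with Hspa8 were left out of the sum. Exons of some annotated Hspa8 transcripts also hold small nucleolar RNAs, which guide RNA modification: Snord14c, Snord14d and Snord14e changed by -1.45, -1.89 and -2.19. These lie at least 5250 bases from the 3' end of Hspa8.

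The largest change of the 10 genes was in the stress-inducible HSP70 gene Hspa1b (chromosome 17, 34956436 to 34959238, minus strand, a single exon). It measured 52.8, 56.7 and 49.5 CPM in the ON mice, against 12.3, 12.7 and 14.2 CPM in the OFF mice. Both groups were tight and far apart, and OFF replicate 3, the lowest OFF library for 5 of the 10 genes, was here the highest. Hspa1b fell 4.05-fold, from 53.0 ± 3.62 to 13.1 ± 0.986 CPM (SD over 3 libraries per group; log2 change -2.02 ± 0.12 SE, edgeR adjusted p = 2.01e-07). Only 0.982% of all tested rows had a more negative fold change. Its neighbour Hspa1a (chromosome 17, 34969190 to 34972156, minus strand) encodes a nearly identical HSP70 and was counted far less often, at 34, 40 and 45 reads in ON and 24, 19 and 8 reads in OFF. The count of 8 carries an exact 95% Poisson interval of 3.45 to 15.8, which covers counting error only. In CPM, Hspa1a went from 4.67 ± 0.856 to 1.89 ± 0.914 (SD over 3 libraries per group), a 2.48-fold fall whose SE of 0.34 on the log2 scale is the largest of the 10 (edgeR adjusted p = 0.00817). Gm20481, which lies antisense, overlaps its exon over 564 bases, ending 722 bases short of the 3' end, and was not among the tested rows. None of the 50-base windows in the last 500 bases of either gene occurs in a transcript of the other or of any other annotated gene. With both rows summed, the change was -1.95 (SE 0.12, adjusted p = 1.56e-07 by edgeR). Summed, they reached 56.6, 61.3 and 55.1 CPM in ON and 14.99, 14.81 and 15.07 CPM in OFF, where relative to their mean the libraries differed less than for any single chaperone gene.

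Within HSP70, the inducible genes were compared with the constitutive one. The log2 ratio of Hspa1a plus Hspa1b to Hspa8 was -4.43, -4.32 and -4.42 in the ON libraries and -5.82, -5.36 and -5.40 in the OFF libraries. It went from -4.39 ± 0.0607 to -5.53 ± 0.251 (SD over 3 libraries per group), a 2.20-fold difference, lower in 3 of 3 OFF libraries (exact two-sided permutation p = 0.1, adjusted 0.1 over the 2 ratios). As a measure for single rows, 24.5% of all tested rows had every OFF library below every ON library. The OFF library with the lowest ratio was replicate 1, in which Hspa8 was highest. Because the Hspa8 row is uncertain in size, the level of this ratio is uncertain too.

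**Figure D2:**
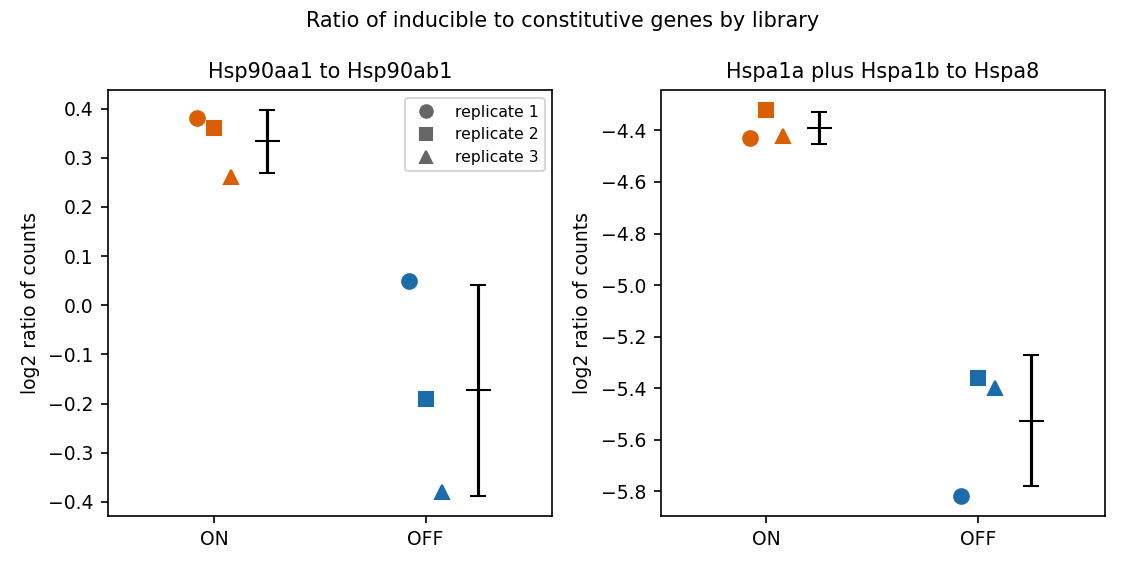
Log2 ratio of counts of Hsp90aa1 to Hsp90ab1 (left) and of Hspa1a plus Hspa1b to Hspa8 (right) in each ON and OFF library, with the mean and SD of each group in black. Both ratios were lower in every OFF library than in any ON library, with means of -0.172 against 0.333 and of -5.53 against -4.39.

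Sequence before the start sites is shown for 3 genes of the set, because the heat shock element, the site that HSF1 trimers bind, is built from repeated GAA units in alternating orientation. The letters GAANNTTC and TTCNNGAA, which each hold a pair of units and read the same on both strands, were searched in windows of 250 bases before to 50 bases after RefSeq start sites (GRCm38.p6). The pair motifs can overlap each other, and capitals mark them below in the 250 bases before the start.
Hspa1b (chr17:34959239-34959488, minus strand): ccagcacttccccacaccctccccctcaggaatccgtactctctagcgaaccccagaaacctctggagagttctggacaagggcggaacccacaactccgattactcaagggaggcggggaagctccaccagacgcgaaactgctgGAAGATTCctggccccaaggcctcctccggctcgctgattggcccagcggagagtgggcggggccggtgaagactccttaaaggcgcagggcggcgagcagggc
Hsph1 (chr5:149636337-149636586, minus strand): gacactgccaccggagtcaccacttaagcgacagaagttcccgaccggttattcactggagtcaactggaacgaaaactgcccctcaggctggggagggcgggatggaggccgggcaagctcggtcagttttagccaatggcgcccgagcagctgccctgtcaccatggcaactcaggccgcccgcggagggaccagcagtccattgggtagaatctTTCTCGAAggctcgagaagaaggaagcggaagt
Dnaja1 (chr4:40722218-40722467, plus strand): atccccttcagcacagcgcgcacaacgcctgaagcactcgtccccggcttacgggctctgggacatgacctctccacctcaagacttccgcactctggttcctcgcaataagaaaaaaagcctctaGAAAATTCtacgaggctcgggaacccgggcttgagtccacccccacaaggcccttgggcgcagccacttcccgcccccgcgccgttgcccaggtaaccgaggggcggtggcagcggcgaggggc

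Of the 10 genes, 6 had such a window (Dnaja1, Dnajb1, Hspa1a, Hspa1b, Hspa4 and Hsph1). One or both pair motifs occurred in 4 of these, Hspa1a, Hspa1b, Hsph1 and Dnaja1, and in 17.0% of all 27025 genes in the table (15.1% of its 32851 windows). For Dnaja1 this holds for the start site whose sequence is printed, and the other two start sites have no match. Dnajb1 and Hspa4 held neither in their windows. The search took exact letters in these windows only, so heat shock elements elsewhere or with other letters would be missed. The Hspa1a sequence of the same 250 bases was 98.8% identical to that of Hspa1b and differed by T44C, C47T and G249T, with positions counted from 1 at the 5' end, the Hspa1b base first and the Hspa1a base last. The motif lies from 104 to 97 bases before the start in both. Hsph1 alone among the 6 also held 3 units in a row, GAANNTTC followed by NNGAA as read on the other strand, which occurred on either strand in 0.603% of all windows. This longer site lies 36 to 48 bases after one of its start sites (chr5:149636288-149636300) and is capitalised here with its flanks.
Hsph1 site (chr5:149636287-149636308, minus strand): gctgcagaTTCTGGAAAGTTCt
The CCAAT box, on either strand, was found in windows of 5 of the 6 genes (all but Hspa4) and for 41.1% of all genes (37.4% of windows). A match describes letters only, and binding of HSF1 was not measured.

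The HSP110 proteins act as exchange factors of HSP70 and hold unfolded clients. Hsph1, the stress-inducible member (chromosome 5, 149614287 to 149636376, minus strand), measured 73.0, 85.1 and 76.8 CPM in the ON mice, against 35.3, 23.6 and 21.0 CPM in the OFF mice. OFF replicate 1 lay above the other two OFF libraries but at less than the lowest ON value. Hsph1 fell 2.94-fold, from 78.3 ± 6.19 to 26.6 ± 7.62 CPM (SD over 3 libraries per group; log2 change -1.55 ± 0.16 SE, edgeR adjusted p = 1.68e-05). Hspa4, its constitutive relative (chromosome 11, 53259814 to 53300457, minus strand), measured 186, 181 and 193 CPM in the ON mice, against 131, 107 and 89.1 CPM in the OFF mice. It fell 1.72-fold (log2 change -0.78 ± 0.13 SE, edgeR adjusted p = 3.38e-04). None of the 3'-end windows of either gene was shared with another annotated gene.

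J proteins deliver clients to HSP70 and stimulate its ATPase. Dnaja1 (chromosome 4, 40722150 to 40737149, plus strand) measured 221, 246 and 234 CPM in the ON mice, against 182, 140 and 140 CPM in the OFF mice. It fell 1.52-fold (log2 change -0.60 ± 0.12 SE, edgeR adjusted p = 0.00128), and its lowest ON and highest OFF libraries were nearer to each other, as a ratio, than those of Hspa8 or Hspa4. The 3' end of Dnaja1 lies in 608 exonic bases shared with Smu1, a splicing factor gene on the opposite strand, which changed by -0.25 without passing (56.0 to 46.9 CPM, adjusted p = 0.0727 by edgeR). The sources used here do not state the strand setting of the counting, so reads of the 2 genes cannot be told apart there. At its other end Dnaja1 shares exonic bases with the opposite-strand RNA gene Gm6297 (1.57 to 0.556 CPM, log2 fold change -1.47), 14751 bases from the 3' end, and it holds the microRNA gene Mir207, which was not tested.

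Dnajb1, the heat-inducible J protein (chromosome 8, 83608193 to 83612653, plus strand), measured 31.2, 37.4 and 30.6 CPM in the ON mice, against 22.0, 18.8 and 21.7 CPM in the OFF mice. It fell 1.59-fold, from 33.1 ± 3.73 to 20.8 ± 1.74 CPM (SD over 3 libraries per group; log2 change -0.67 ± 0.13 SE, edgeR adjusted p = 0.00112). Its log2 change of -0.67 lay beside the -0.60 of Dnaja1, and the difference between these J protein genes was not tested.

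Hsf1 encodes the factor that induces a subset of these genes (chromosome 15, 76477422 to 76501913, plus strand). It had few reads, at 98, 106 and 104 reads in ON and 69, 76 and 74 reads in OFF. These corresponded to 11.2, 12.1 and 12.9 CPM and to 7.66, 8.47 and 8.14 CPM, without overlap. It fell 1.49-fold (log2 change -0.57 ± 0.16 SE, edgeR adjusted p = 0.0114). The call was lost without ON replicate 3 (log2 fold change -0.53, adjusted p = 0.0578 by edgeR). HSF1 protein is regulated mainly after translation, and its activity was not measured. Of the other heat shock factors and their binding proteins, Hsf2 gave 0.00 (11.0 CPM in both groups, adjusted p = 1) and Hsbp1 gave -0.22 (66.1 to 56.7 CPM, adjusted p = 0.159 by edgeR). By edgeR neither passed, also at an unadjusted p of 0.05 or by DESeq2, and Hsf3, Hsf4 and Hsf5 were too low to be tested.

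**Figure D3:**
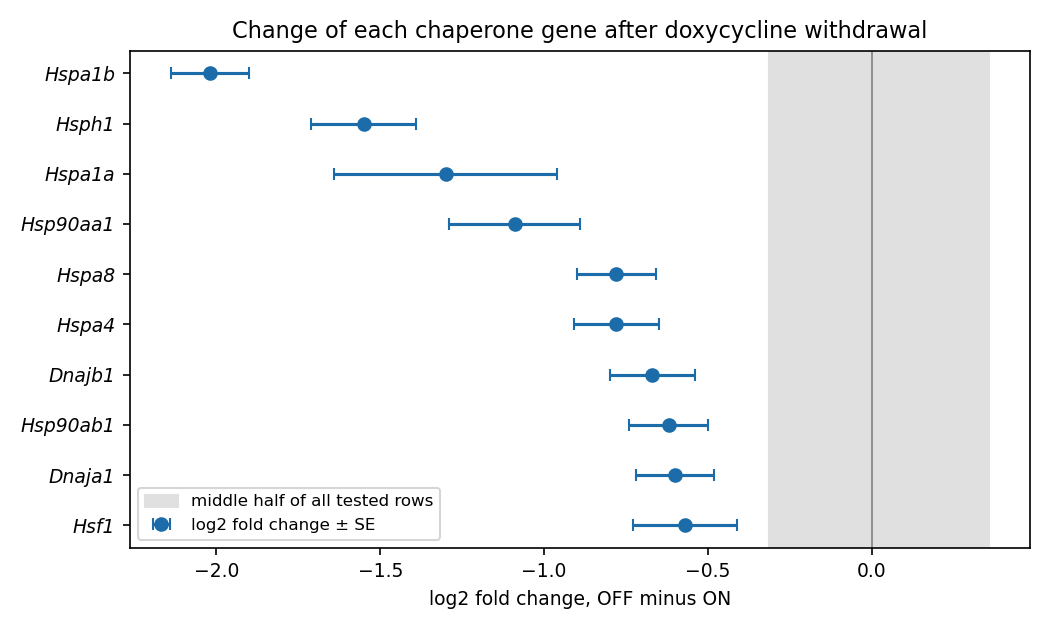
Log2 fold change (OFF minus ON) with its SE for each of the 10 chaperone genes, from edgeR. The grey band spans the middle 50% of all tested rows, from -0.31 to 0.36, and all 10 genes lie to its left, from -0.57 (Hsf1) to -2.02 (Hspa1b).

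Of 24 co-chaperones and adaptors that work with HSP90, 13 fell and 2 rose, with a median of -0.48. Among all tested rows, 17.5% were called lower and 17.3% higher. The immunophilin Fkbp4, which links HSP90 to steroid receptors, went from 124 ± 6.29 to 56.6 ± 11.2 CPM (SD over 3 libraries per group; log2 fold change -1.13, adjusted p = 1.93e-05 by edgeR). The cyclophilin Ppid changed by -1.13 (131 to 60.0 CPM) and the HSP90-binding Nudcd2 by -0.99 (71.9 to 36.3 CPM). The members that rose, named after their values were seen, were Fnip1, the folliculin partner that slows the HSP90 ATPase (39.5 to 70.6 CPM, 0.84), and Pih1d1, an adaptor of the R2TP complex (12.3 to 18.0 CPM, 0.54). Pih1d1 lost its call in each of the 4 fits that left out an ON library or OFF replicate 3 (adjusted p = 0.0744 to 0.0993 by edgeR).

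Of the other HSP70 family members and exchange factors, 5 of 14 tested fell, and none rose by edgeR, at an unadjusted p of 0.05 or by DESeq2. The median was -0.24, and 17.5% of all tested rows were called lower. Bag2, an inhibitor of the ubiquitin ligase that works with HSP70, fell from 8.77 ± 0.577 to 2.47 ± 0.339 CPM (SD over 3 libraries per group; log2 fold change -1.82, adjusted p = 2.42e-05 by edgeR). The exchange factors Hspbp1 and Bag5 changed by -0.74 and -0.90. Among other cytosolic J proteins 3 of 14 tested fell (7 without OFF replicate 1), and none rose by edgeR, at an unadjusted p of 0.05 or by DESeq2 (1 without OFF replicate 3). Their median was -0.18, and 3 of 14 is near the share of all rows called lower (17.5%, or 20.9% of rows with a mean of at least 10 CPM). Dnaja2, close in structure to Dnaja1, changed by -0.78 (164 to 95.5 CPM, adjusted p = 5.32e-05 by edgeR), and the ribosome-bound Dnajc2 by -0.77. Dnajc21, a ribosome assembly factor, changed by -0.45, a call lost without ON replicate 3 (adjusted p = 0.0749 by edgeR). Small heat shock proteins, which bind unfolded proteins without ATP, were near absent: of 9 listed, 5 had no count in any library and only Hspb6 could be tested. Hspb6 stood at 4.04 CPM in ON and 6.57 CPM in OFF (0.70, adjusted p = 0.0318 by edgeR), a call lost by DESeq2 and on leaving out any 1 library but OFF replicate 1 (0.0538 to 0.134).

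Genes known to be heat-inducible in other settings, other than the 10, fell in 9 of 18 tested cases and rose in 1, with a median of -0.48. Hspe1 and Hspd1, which form the mitochondrial chaperonin, changed by -1.18 and -1.56, and with Fkbp4 they had the smallest p-values of this list, whose members overlap those of the other lists. The gene that rose, named after its value was seen, was the death effector gene Dedd2 (22.9 to 34.1 CPM, 0.57). All 8 subunits of the cytosolic chaperonin CCT, which folds actin and tubulin, fell (median -0.67), led by Cct6a, Cct3 and Cct8 at -1.03, -1.07 and -0.83. Of 6 subunits of prefoldin, which hands clients to CCT, 4 fell, among them Pfdn4 (-0.76) and Pfdn2 (-0.73), and Pfdn5 rose (0.43). Mitochondrial chaperones fell in 7 of 13 cases and rose in 1 (median -0.46), the third by p being Hspa9 (-1.19). The member that rose, Hscb (0.69, adjusted p = 0.0402 by edgeR, named after its value was seen), lost its call by DESeq2, with the deposited log2 table and on leaving out any 1 library but OFF replicate 1 (0.067 to 0.15). Of 16 endoplasmic reticulum chaperones 5 fell, and none rose by edgeR, at an unadjusted p of 0.05 or by DESeq2 (median -0.29). The HSP70-type proteins Hyou1 and Hspa5 and the secreted stress protein Manf led them at -0.78, -0.58 and -0.47. These medians were not tested against that of the 10 genes. The share of all rows called lower was 17.5%, and 17.3% were called higher.

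**Figure D4:**
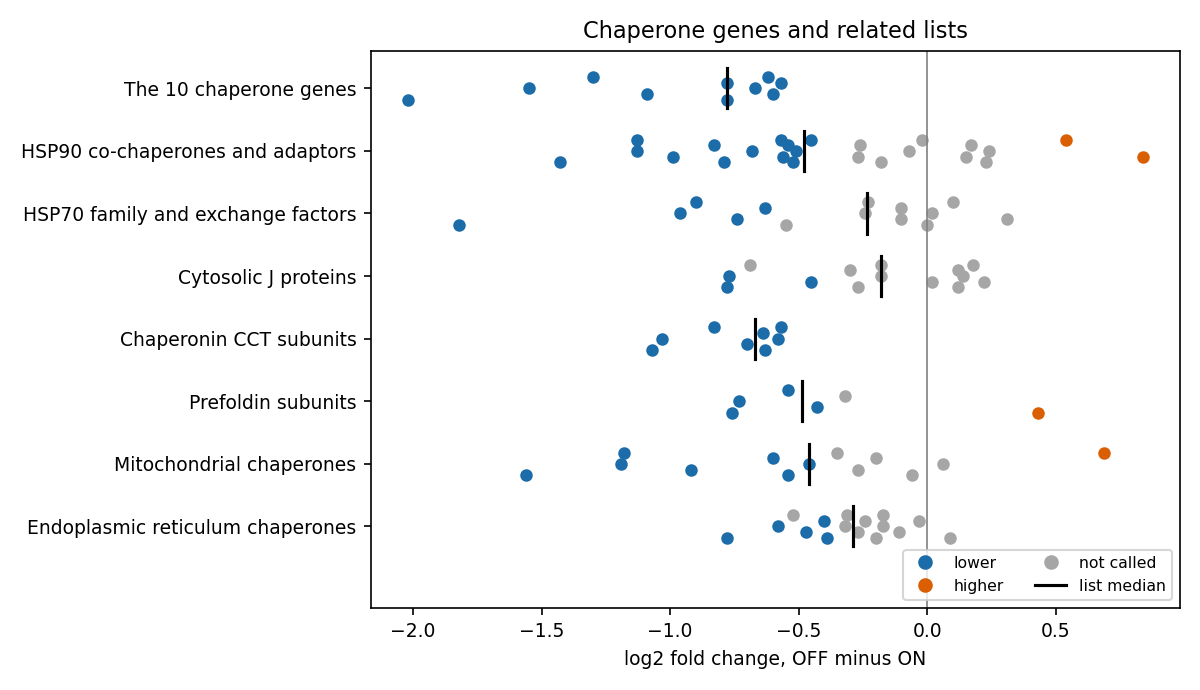
Log2 fold change (OFF minus ON) of each tested gene of the cytosolic chaperone set and of 7 related lists, coloured by its call, with a black line at each list's median. The 10 chaperone genes (median -0.78) and the CCT subunits (-0.67) lie wholly below 0, whereas the HSP70 family and J protein lists spread around medians of -0.24 and -0.18.

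Over the 6 libraries, the median profile of the 10 genes, as log2 CPM centred for each gene, was 0.40, 0.46 and 0.43 in ON and -0.11, -0.45 and -0.62 in OFF. Hspa4 lay nearest to it, at a mean absolute difference of 0.0387, and Hspa1b farthest, at 0.589. Among 8052 other rows with a mean of at least 10 CPM, the 5 nearest were Gcn1l1, Ipo7, Serbp1, Bzw1 and Hsd17b12, at distances of 0.0329 to 0.0462. Gcn1l1, an activator of the kinase that senses amino acid shortage, changed by -0.87, the import receptor Ipo7 by -0.81, the mRNA-binding Serbp1 by -0.81, the translation regulator Bzw1 by -0.79 and the fatty acid elongation enzyme Hsd17b12 by -0.87. These profiles mainly separate the groups, and with 6 libraries the likeness is a description.

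Values of other genes moved with the same comparison, in which 17.5% of all tested rows were called lower and 17.3% higher. Immediate early genes, like Hspa1a, Hspa1b and Dnajb1, can also be induced while tissue is handled and sorted. They fell in 9 of 16 tested cases (7 to 13 with 1 library left out) and rose in 1, with a median of -0.86. Their summed level was 364 to 478 CPM in ON and 224 to 250 CPM in OFF, and Junb, Jund and Egr1 changed by -0.90, -0.83 and -2.17. The one that rose, named after its value was seen, was Fosl2 (12.1 to 22.3 CPM, 0.88). Whether the values of the immediate early genes reflect handling, FLT3-ITD or doxycycline was not tested. All 5 tested erythroid markers rose, with log2 changes of 2.02 to 2.30, among them the globin row Hbb-bs from 29.3 to 135 CPM. The summed erythroid level was 150 to 212 CPM in ON and 578 to 933 CPM in OFF, while Epor had no count in ON and at most 2 counts in an OFF library. Markers of B cells and of T and NK cells summed to at most 2.06 and 4.62 CPM, with Cd8a at 0 throughout, and those of stroma and endothelium to at most 11.7 CPM, with Lepr at 0. Megakaryocyte markers summed to 32.4 to 37.2 CPM in ON and 55.0 to 63.8 CPM in OFF, nearly all from Gp1bb, and macrophage markers to 42.8 to 48.3 and 35.9 to 41.3 CPM, with Cd5l at 0. Most of the macrophage sum was Vcam1, which fell from 39.8 to 19.9 CPM (edgeR adjusted p = 7.65e-05). The other tested macrophage markers rose, Adgre1 from 4.06 to 16.2 CPM (2.00, edgeR adjusted p = 2.03e-04) and Mrc1 from 0.501 to 1.48 CPM (1.52, edgeR adjusted p = 0.0163). Ribosomal RNA rows took 11.3% to 16.2% of counts in ON and 10.1% to 18.0% in OFF. The part of these in the fall of the chaperone genes was not tested. Without OFF replicate 3, which stands apart, all 10 genes were still called lower.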

How the data were processed

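Leukaemic cells sorted from 6 mice (3 ON, 3 OFF) were profiled with a 3'-end mRNA kit, per the labels' protocols. The authors' deposited counts are raw whole numbers per gene row. Their deposited log2 table holds values for 12287 genes with nearly equal column distributions, and the sources used here do not state its filter. Per the submitters' processing notes, the tools were HISAT2 2.0.4, featureCounts of Subread 1.6.3, cutadapt 1.9.1 and limma 3.42.2, with FastQC 0.11.6, bcl2fastq 2.17.1.14 and R 3.6.1, and the build was mm10. The sources used here do not state the annotation, strand or multi-mapping settings.

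Of 54838 rows, 1105 without a name (0.145% to 0.172% of counts) were left out. The remaining counts were tested with edgeR 4.0.16 (R 4.3.3): filterByExpr (minimum count 10, minimum total 15), TMM, robust dispersions, glmQLFit and glmQLFTest for OFF minus ON, with Benjamini-Hochberg adjustment over 13652 rows at 0.05. An SE was taken as the absolute log2 change over the root of F. CPM use TMM-scaled library sizes; ratios of genes use counts plus a prior of 2. Pairs of replicates differed by more than sampling noise (chi-square per degree of freedom 2.98 to 39.5), and each library was taken as 1 replicate. The labels do not say that mice were otherwise independent. The p-values set the group difference against the spread between libraries within groups, and cover these libraries only. On simulated counts for this comparison with 13436 tested rows, 23 of 50 genes changed 1.5-fold, 48 of 50 changed 2-fold and all 50 changed 4-fold were recovered. In the same simulation 23 unchanged rows were called. It changed a far smaller part of the rows than the 34.8% called in the data, and only rows above a minimum level. Recovery in the data may therefore differ. A count of 0 allows up to 3 counts, at most 0.36 CPM, for counting error only. Alternatives used DESeq2 1.42.0, limma 3.58.1, other scalings and filters, single libraries left out and a replicate block.

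The members and gene lists were chosen with earlier results of these data known. Named genes are the 10 members, genes whose exons overlap them, the 3 called genes of smallest p in each related list, the 5 nearest profiles and markers. Gene positions and transcripts are from GENCODE M21 (GRCm38) and promoters from RefSeq (GRCm38.p6), with 6 of 10 genes matched. An erythroid marker is not reported here and is left out of the summed level.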

Additional observations from a re-analysis of the deposited data

How the results depend on the processing

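The count of 10 chaperone genes called lower was kept under DESeq2, DESeq2 size factors, library totals alone, no filter on low counts, ribosomal RNA rows left out, the deposited log2 table with limma and 5 of the 6 settings that leave out 1 library. It was 9 without ON replicate 3, where Hsf1 did not pass, 9 with a minimum of 10 CPM in 3 libraries, where Hspa1a was not tested, and 9 with Hspa1a and Hspa1b summed, which leaves 9 rows. None of the 10 changed direction in any of these. Of 140 alternative values for single chaperone genes, 139 kept their direction and their call. The replicate block also gave 10 lower; the labels share replicate numbers, but same-numbered libraries did not deviate together (correlations 0.035, -0.076 and -0.05), so the block says little here. It gave 2230 rows lower and 2173 higher, against 2390 and 2356, and moved no count of a related list by over 1.5 times.

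With each library left out in turn, the 10 genes gave 9 to 10 lower and 0 higher, and all rows gave 1678 to 2740 lower and 1615 to 2704 higher. Over the same settings, HSP90 co-chaperones gave 13 to 14 lower and 1 to 3 higher, cytosolic J proteins 2 to 7 lower and 0 to 1 higher, mitochondrial chaperones 5 to 9 lower and 0 to 1 higher, and small heat shock proteins 0 to 1 higher. By DESeq2, mitochondrial chaperones and small heat shock proteins gave 0 higher each. The cause of these differences was not tested. The log2 ratio of Hsp90aa1 to Hsp90ab1 ranged from -0.62 to -0.40, and that of Hspa1a plus Hspa1b to Hspa8 from -1.22 to -0.99. Depth limits Hspa1a and Hsf1 most, and 1.5-fold changes were often missed in simulated data of this size, in which fewer rows changed.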
